A study of Mus musculus with 4 samples.

Results

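The NRF2 pathway genes described here are 10 members fixed by name: Nfe2l2, Keap1, Cul3, Sqstm1, Nqo1, Gclc, Gclm, Slc7a11, Txnrd1 and Hmox1. They are 10 of the 17962 autosomal gene names given a value, and the rule that picks them uses names and no measured value. The list was chosen with earlier results of these data known. Of the 10, 8 are named on probes of the array. Nfe2l2 encodes NRF2, a transcription factor that switches on genes against oxidants and electrophiles. KEAP1 binds NRF2 and hands it to a CUL3 ubiquitin ligase for destruction. Electrophiles that modify KEAP1 stop this, and p62, the product of Sqstm1, can draw KEAP1 away. Freed NRF2 pairs with small MAF proteins on antioxidant response elements and raises enzymes of glutathione, thioredoxin, quinone and haem metabolism. In liver cancer this route is known to be switched on by mutation of NFE2L2 or KEAP1, which a copy number measurement does not read.

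DNA copy number was measured by array comparative genomic hybridisation of liver tumours from 4 Fah-/- Trp53-/- mice, numbered 239, 240, 244 and 252. Fah encodes the last enzyme of tyrosine breakdown, whose loss lets reactive tyrosine metabolites build up unless the drug NTBC blocks an earlier step, and Trp53 encodes the p53 tumour suppressor. NTBC at 7.5 mg/L was the full dose in the drinking water, and the mice were kept on 2.5% of it for 6 months. The control was 1 pool of liver DNA from 3 Fah+/+ Trp53+/+ littermates, with tumour DNA in Cy5 and the pool in Cy3 on every array. All animals are labelled male. No ages are given in the sources used here. The pool counts as 1 control sample, so any departure of its own enters all 4 ratios alike. Liver without NTBC restriction, non-tumour liver of Fah-/- Trp53-/- mice and RNA were not analysed here.

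The arrays held 170305 probes at a median spacing of 10.9 kb, and 98.7% to 98.9% of their spots were well above background in both colours. Neighbouring probes scattered with an SD of 0.31 to 0.39 on the log2 scale. The 2 probes named for Fah averaged 0.30, 0.02, -0.19 and 0.05 in tumours 239, 240, 244 and 252, and the 2 named for Trp53 averaged 0.09, 0.08, 0.06 and 0.07. Whether these probes lie in the deleted parts of either gene is not known, so they check no label. Tumour 252 stood apart on the sex chromosomes and went against its label: its X median was 0.73 against -0.09, -0.11 and -0.30 in 239, 240 and 244, and its Y median was -2.43 against -0.31, -0.14 and -1.20. Results are therefore also given without it. Only autosomal genes were tested, and all 10 NRF2 genes are autosomal.

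Each value is the log2 ratio of tumour to pool, centred on the autosomal median of its array. In a pure diploid tumour 1 extra copy would read 0.58 and 1 lost copy -1. The share of tumour cells and their ploidy were not measured, so values nearer 0 give no copy number. Each gene was read in 3 ways: on its own probes, on all other probes within 500 kb of their midpoint (the surroundings), and as own probes minus surroundings. A gene was called gained in a tumour at surroundings of 0.2 or more and lost at -0.2 or less, with no test, since a single tumour has no replicate. Across the 4 tumours each measure was tested against 0 with limma, with p-values adjusted by Benjamini-Hochberg over all genes.

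Over the 4 tumours none of the 10 NRF2 genes passed limma on its surroundings in either direction, against 13.8% of all genes (7.82% higher and 5.95% lower), and 2 (Gclc and Slc7a11) had an unadjusted p under 0.05, as had 32.3% of all genes. A robust limma fit also called none. The calls were those of single tumours. Tumour 244 was gained at Nqo1 and Hmox1 and lost at Keap1 and Gclc, and tumour 239 was lost at Nqo1 and Hmox1. Tumours 240 and 252 had no call at any of the 10, where 2.3% and 4.17% of all genes were gained and 2.29% and 3.53% lost. Tumour 244 had 2 members gained and 2 lost against 20.9% and 25.8% of all genes, shares close to the background of that tumour. Tumour 239 had 2 of 10 lost against 5.23% of all genes and none gained against 4.18%, and the 2 lost genes lie on chromosome 8.

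**Figure D1:**
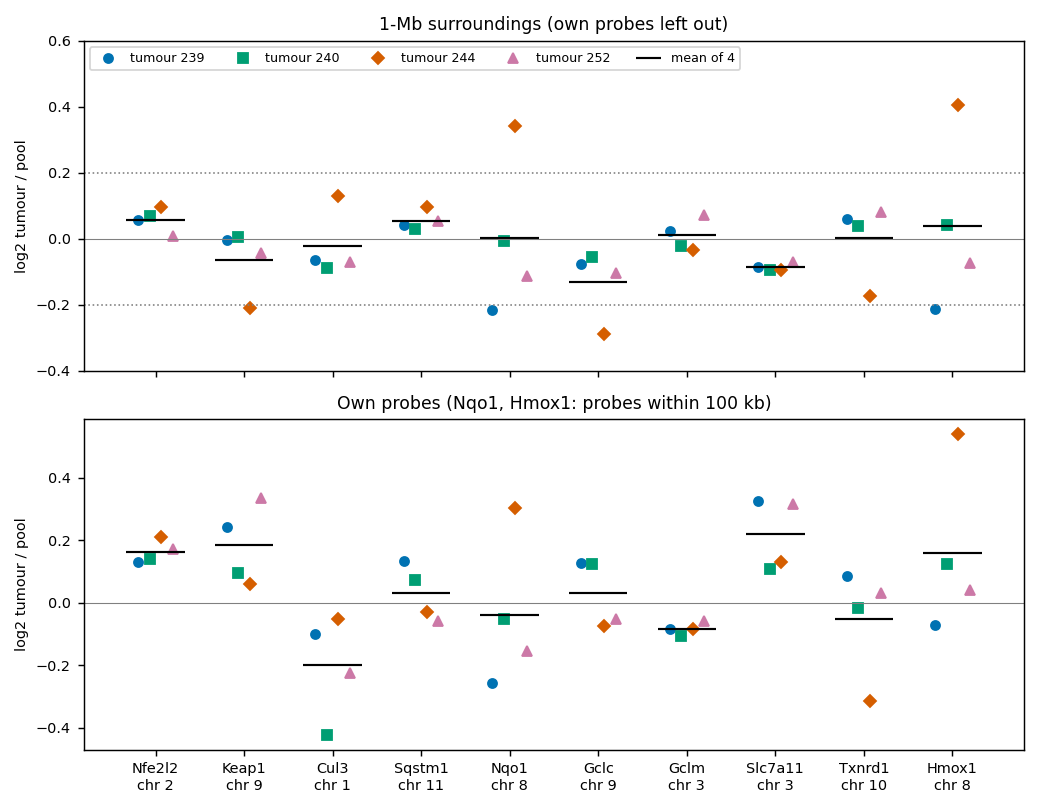
Log2 ratio of tumour to pool for the 10 NRF2 genes in each of the 4 tumours, for the 1-Mb surroundings (upper panel, dotted lines at the call threshold of 0.2) and for own probes (lower panel), with black bars for the mean. The surroundings lie within 0.2 of 0 except at Nqo1 and Hmox1 in tumours 239 and 244 and at Keap1 and Gclc in tumour 244.

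Nfe2l2, the gene of the activator itself, had 4 own probes on chromosome 2, between 75515903 and 75538090 of the mm9 build used by the array, and 60 probes in its surroundings. Its surroundings read 0.06, 0.07, 0.10 and 0.01 in tumours 239, 240, 244 and 252, averaging 0.06 ± 0.04 (SD, n = 4 tumours, limma adjusted p = 0.271). All 4 lay just above 0, and none reached the call threshold. Its own probes read 0.13, 0.14, 0.21 and 0.17, averaging 0.16 ± 0.04 (SD, n = 4 tumours, limma adjusted p = 0.0484), and so lay higher than the pool in every tumour. This call was lost when any 1 tumour was left out, with limma adjusted p from 0.0576 without 244 to 0.174 without 252, with arrays centred on the mode of their 1-Mb bins (limma adjusted p = 0.0938) or with the median over probes (limma adjusted p = 0.0695).

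The 4 Nfe2l2 probes did not read alike, and the last pair shows how far apart probes of the gene could lie. The third probe was above 0 in every tumour, at 0.26, 0.61, 0.54 and 0.60. The fourth read 0.06, -0.33, 0.00 and -0.22. Their 60-base sequences, as the array files give them, with no strand stated and in lower case as no base is singled out, are these.
Nfe2l2 probe at chr2:75528079-75528138: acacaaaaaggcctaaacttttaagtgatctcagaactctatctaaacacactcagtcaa
Nfe2l2 probe at chr2:75538031-75538090: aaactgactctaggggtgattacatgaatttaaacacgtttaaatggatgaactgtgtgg
No annotation of mm9 was used here, so whether a probe lies in an exon or an intron is not stated.

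Keap1, the repressor that holds NRF2 for degradation, had 1 own probe on chromosome 9 and 104 probes in its surroundings. The surroundings read -0.00, 0.01, -0.21 and -0.04, averaging -0.06 ± 0.10 (SD, n = 4 tumours, limma adjusted p = 0.375). Tumour 244 alone lay past the call threshold, and the other 3 were at 0 within 0.05. The same held over narrower and wider stretches of tumour 244, with -0.25 in 0.5 Mb, -0.23 in 5 Mb and -0.23 over the whole of chromosome 9. With the median over probes in place of the mean, tumour 244 read -0.19, short of the call threshold. The single Keap1 probe read 0.24, 0.10, 0.06 and 0.34 (mean 0.18 ± 0.13, SD, n = 4; limma adjusted p = 0.0525). It lay above 0 also in tumour 244, whose surroundings were below 0. The probe passed as higher with normexp background correction, at 0.38 (limma adjusted p = 0.00133). It also passed with probes well above background, at 0.19 (limma adjusted p = 0.0482). Without tumour 252 it read 0.13 (limma adjusted p = 0.267). As the Keap1 reading rests on this probe alone, its sequence is given.
Keap1 probe at chr9:21039273-21039332: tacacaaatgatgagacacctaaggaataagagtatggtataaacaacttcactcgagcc

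Set against each other, Nfe2l2 lay above Keap1 in the surroundings of 4 of 4 tumours. The differences were 0.06, 0.07, 0.31 and 0.05, averaging 0.12 ± 0.12 (SD, n = 4), with an exact two-sided sign-flip permutation p of 0.125, the smallest that 4 tumours allow. The difference in tumour 244 was the largest, and without it the mean was 0.06. In tumour 244 chromosomes 2 and 9 as a whole read 0.11 and -0.23. The order turned in tumour 252 with 0.5-Mb surroundings (-0.079 at Nfe2l2, -0.070 at Keap1) and with the median over probes (0.0022 and 0.0071). On own probes Keap1 lay above Nfe2l2 in tumours 239 and 252 and below it in 240 and 244.

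Cul3, the scaffold of the ligase that ubiquitinates NRF2, had 8 own probes on chromosome 1 between 80264982 and 80321638 and 56 probes around it. Its surroundings read -0.06, -0.09, 0.13 and -0.07, averaging -0.02 ± 0.10 (SD, n = 4 tumours, limma adjusted p = 0.765). Tumour 244 was the only tumour above 0, and it was so along the whole chromosome, at 0.21. Without tumour 244 the mean was -0.07 (limma adjusted p = 0.0256). The own probes read -0.10, -0.42, -0.05 and -0.22, averaging -0.20 ± 0.17 (SD, n = 4 tumours, limma adjusted p = 0.0535).

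The low own-probe mean of Cul3 came from 1 probe. That probe read -1.29, -1.85, -1.66 and -1.65 in tumours 239, 240, 244 and 252, averaging -1.62 ± 0.23 (SD, n = 4). It was the only 1 of the 33 own probes of the NRF2 genes at -1 or lower in all 4 tumours, as were 0.635% of all autosomal probes. Its neighbours on either side read 0.25 ± 0.22 and -0.14 ± 0.14 (SD, n = 4). With the probe left out, a choice made after seeing the data, the other 7 read 0.07, -0.22, 0.18 and -0.02, averaging 0.00 ± 0.17 (SD, n = 4 tumours, limma adjusted p = 0.978). The low probe is printed between its neighbours.
Cul3 probe at chr1:80285869-80285928: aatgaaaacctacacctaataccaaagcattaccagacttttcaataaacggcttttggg
Cul3 low probe at chr1:80292573-80292632: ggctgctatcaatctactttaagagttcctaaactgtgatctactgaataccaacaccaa
Cul3 probe at chr1:80301650-80301709: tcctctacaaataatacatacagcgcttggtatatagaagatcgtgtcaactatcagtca
Their GC contents of 36.7%, 38.3% and 36.7% were alike.

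Sqstm1 encodes p62, the autophagy adaptor that can pull KEAP1 off NRF2. It had 1 own probe on chromosome 11 and 85 probes around it. The surroundings read 0.04, 0.03, 0.10 and 0.05, averaging 0.06 ± 0.03 (SD, n = 4 tumours, limma adjusted p = 0.278), and the probe read 0.13, 0.07, -0.03 and -0.06, averaging 0.03 ± 0.09 (SD, n = 4 tumours, limma adjusted p = 0.725). All 4 surroundings were above 0, and the probe was split between 2 tumours above and 2 below.
Sqstm1 probe at chr11:50017882-50017941: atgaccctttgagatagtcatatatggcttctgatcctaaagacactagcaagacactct

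Among the NRF2 targets, the widest spread between tumours was at the chromosome 8 genes. Nqo1, which reduces quinones, and Hmox1, which breaks down haem, are named on no probe. They were placed between the probes of their RefSeq neighbours (GRCm38.p6 for the gene order only) and read on all probes within 100 kb. Nqo1 was placed at 109842922, midway between Cyb5b and Wwp2, whose probes are 283 kb apart, and Hmox1 at 77614417, between Tom1 and Mcm5, 43.2 kb apart. Their exact positions are therefore uncertain within these gaps.

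The surroundings of Hmox1, with 47 probes, read -0.21, 0.04, 0.41 and -0.07 in tumours 239, 240, 244 and 252, averaging 0.04 ± 0.27 (SD, n = 4 tumours, limma adjusted p = 0.797). Those of Nqo1, with 69 probes, read -0.21, -0.01, 0.34 and -0.11, averaging 0.00 ± 0.24 (SD, n = 4 tumours, limma adjusted p = 0.991). Tumour 244 was high and tumour 239 low at both genes, so a mean near 0 joined a gained and a lost tumour. In tumour 244 the whole of chromosome 8 was high, at 0.33. In tumour 239 the chromosome lay at -0.09, and the 5 Mb around Nqo1 and Hmox1 lay lower, at -0.19 and -0.25.

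Closer in, the Hmox1 region differed between scales. Its 15 probes within 100 kb read -0.07, 0.13, 0.54 and 0.04, averaging 0.16 ± 0.27 (SD, n = 4 tumours, limma adjusted p = 0.20), which is above the surroundings in every tumour. Against the 0.5-Mb surroundings the difference was 0.01 (limma adjusted p = 0.832), against 0.12 with 1 Mb. In tumour 239 the 0.5-Mb surroundings read -0.09, so the loss called there at 1 Mb did not hold at this scale. The 16 probes within 100 kb of Nqo1 read -0.26, -0.05, 0.30 and -0.16, each 0.04 below its surroundings.

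Without tumour 244 the Nqo1 surroundings turned to -0.11 (limma adjusted p = 0.0379). In that fit 4 members passed as lower, the others being Cul3, Gclc at -0.08 (limma adjusted p = 0.0228) and Slc7a11 at -0.08 (limma adjusted p = 0.0161). Of all genes 23.4% were then higher and 16.4% lower, together 39.8% against 13.8% with all 4 tumours, so the calls grew over the whole genome and not at these genes alone. With the median over probes Gclc read -0.02, -0.03 and -0.02 in tumours 239, 240 and 252. Slc7a11 read -0.11, -0.16 and -0.13 by the same median. Leaving out tumour 239, 240 or 252 left the count at 0. Without 239 or 252 none of the genes tested passed in its surroundings, although 4284 and 3891 had an unadjusted p under 0.05 in limma.

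**Figure D2:**
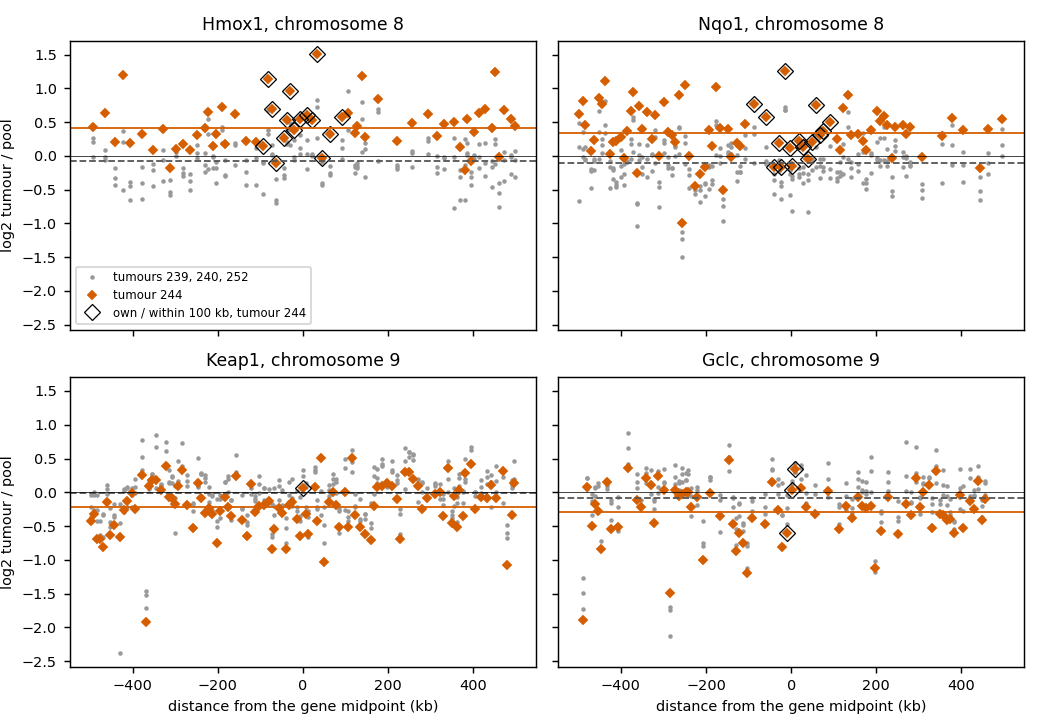
Log2 ratio of tumour to pool for every probe within 500 kb of Hmox1, Nqo1, Keap1 and Gclc, by distance from the gene midpoint in kb. Diamonds are tumour 244, with own probes or, for Hmox1 and Nqo1, probes within 100 kb ringed, and dots are the other 3 tumours. Solid lines mark the surroundings of tumour 244 at 0.41, 0.34, -0.21 and -0.29, and dashed lines the mean of the surroundings over the other 3.

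Gclc and Gclm encode the catalytic and modifier subunits of glutamate-cysteine ligase, the rate-limiting enzyme of glutathione synthesis, and Slc7a11 encodes the xCT transporter that brings in cystine for it. Gclc shares chromosome 9 with Keap1 and had 74 probes in its surroundings, which read -0.08, -0.06, -0.29 and -0.10, averaging -0.13 ± 0.11 (SD, n = 4 tumours, limma adjusted p = 0.109). All 4 tumours lay below 0, and 244 lay lowest and past the call threshold. With the median over probes in place of the mean, these surroundings read -0.02, -0.03, -0.22 and -0.02. The 3 own probes read 0.13, 0.12, -0.07 and -0.05, averaging 0.03 ± 0.11 (SD, n = 4 tumours, limma adjusted p = 0.723), split between 2 tumours above and 2 below 0.

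Gclm, on chromosome 3, lay nearest to 0 among the glutathione genes by its surroundings. Its surroundings, with 79 probes, read 0.03, -0.02, -0.04 and 0.07, averaging 0.01 ± 0.05 (SD, n = 4 tumours, limma adjusted p = 0.865). Its 2 own probes together read -0.08, -0.11, -0.08 and -0.06, averaging -0.08 ± 0.02 (SD, n = 4 tumours, limma adjusted p = 0.278). Behind these close means the 2 probes read opposite ways in every tumour, -0.27 ± 0.06 and 0.11 ± 0.06 (SD, n = 4). They are printed in genome order, the lower probe first.
Gclm probe at chr3:121954406-121954465: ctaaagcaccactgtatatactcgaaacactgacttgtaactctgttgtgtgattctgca
Gclm probe at chr3:121962706-121962765: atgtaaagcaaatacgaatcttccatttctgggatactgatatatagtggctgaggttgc

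Slc7a11 had the highest own-probe mean among the members. This mean lay at percentile 82.1 of all genes, and the values of single tumours lay between percentiles 63.3 and 92.4. Of all genes 21.2% were called higher on own probes in limma. The 8 probes between 50174992 and 50244422 on chromosome 3 read 0.33, 0.11, 0.13 and 0.32, averaging 0.22 ± 0.12 (SD, n = 4 tumours, limma adjusted p = 0.0245). Its surroundings of 51 probes read -0.09, -0.09, -0.09 and -0.07, averaging -0.09 ± 0.01 (SD, n = 4 tumours, limma adjusted p = 0.111). With the median over probes in place of the mean, these surroundings read lower, at -0.11, -0.16, -0.13 and -0.13. The own probes thus lay above 0 and the surroundings below 0 in all 4 tumours, and 7 of the 8 probes were above 0 in every tumour. No share of all autosomal probes is given beside this count. The own-probe call was lost without tumour 239, at 0.18 (limma adjusted p = 0.0838), without tumour 252, at 0.19 (limma adjusted p = 0.129), with arrays centred on the mode of their 1-Mb bins, at 0.20 (limma adjusted p = 0.0661), and with normexp background correction, at 0.15 (limma adjusted p = 0.0806). The probe with the highest mean, 0.38 ± 0.09 (SD, n = 4), has this sequence.
Slc7a11 probe at chr3:50237639-50237698: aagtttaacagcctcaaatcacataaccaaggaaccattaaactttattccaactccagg

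Txnrd1 encodes the cytosolic thioredoxin reductase. Its surroundings on chromosome 10, with 73 probes, read 0.06, 0.04, -0.17 and 0.08, averaging 0.00 ± 0.12 (SD, n = 4 tumours, limma adjusted p = 0.989). Tumour 244 was the only tumour below 0 and came close to the call threshold. The 5 Mb around Txnrd1 read -0.20 and the whole chromosome -0.25 in that tumour. The 6 own probes read 0.09, -0.02, -0.31 and 0.03, averaging -0.05 ± 0.18 (SD, n = 4 tumours, limma adjusted p = 0.607), with tumour 244 again the lowest.

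The level of tumour 244 depended on where its 0 was set. The mode of its autosomal probes lay at 0.005, and the mode of its 1-Mb bins at 0.105. Set to the latter, an alternative chosen after seeing the data, the gains at Nqo1 and Hmox1 stood at 0.24 and 0.30 and the losses at Keap1 and Gclc at -0.32 and -0.39. Txnrd1 then joined the lost genes at -0.28, Slc7a11 came to -0.198, just short of the threshold, and Nfe2l2 and Sqstm1 turned to -0.01.

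On own probes, or probes within 100 kb for Nqo1 and Hmox1, 2 of the 10 genes, Nfe2l2 and Slc7a11, were higher than the pool and none was lower. Of all genes 21.2% were higher and 17.7% lower, together 38.8% in either direction, so 2 of 10 higher is near the background. Without tumour 239 or without tumour 252 no member was higher, where 20.2% and 13.4% of all genes were. Keap1 passed as higher without tumour 244, at 0.23 (limma adjusted p = 0.0371). Cul3 passed as lower without 239, at -0.23 (limma adjusted p = 0.0475), and without 244, at -0.25 (limma adjusted p = 0.0427). With normexp background correction the split over all genes turned from 3800 higher and 3175 lower to 3796 and 4843, and 4 members were higher and 1 lower. For the surroundings normexp moved the split from 1399 higher and 1064 lower to 697 and 1991.

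As own probes minus surroundings, 6 of the 10 genes passed. Nfe2l2, Keap1, Gclc, Slc7a11 and Hmox1 lay above their surroundings, against 25.7% of all genes, and Cul3 lay below, against 23.2%. The largest difference was at Slc7a11, at 0.41, 0.20, 0.22 and 0.39, averaging 0.31 ± 0.11 (SD, n = 4 tumours, limma adjusted p = 0.00397). Keap1 followed at 0.25, 0.09, 0.27 and 0.38, averaging 0.25 ± 0.12 (SD, n = 4 tumours, limma adjusted p = 0.00976). Gclc differed by 0.20, 0.18, 0.21 and 0.05, averaging 0.16 ± 0.07 (SD, n = 4 tumours, limma adjusted p = 0.0177). The other calls were 0.12 ± 0.03 at Hmox1 (limma adjusted p = 0.0245), 0.11 ± 0.04 at Nfe2l2 (limma adjusted p = 0.0449) and -0.18 ± 0.12 at Cul3 (SD, n = 4; limma adjusted p = 0.0319). All 4 tumours had the same sign for each of these 6 genes, which is no separate support, as the test that picked them used the same 4 values.

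These differences have to be read beside the behaviour of the probes. Of all genes 48.8% passed this test, and the share fell with the number of own probes, from 57.1% of genes with 1 probe to 30.5% of genes with 10 or more. Keap1 has 1 own probe, Gclc 3 and Slc7a11 8. Of the 33 own probes of the NRF2 genes, 18 lay above and 5 below their surroundings in all 4 tumours. Slc7a11 alone gave 7 of the 18. The same counts were not taken over all autosomal probes, so they have no background here. Across these probes the departures correlated at r = 0.854 to 0.940 between arrays, which share the pool, the dye order and the probe sequences. Probe GC content was 37.0% ± 2.0 (SD over 33 probes) against 36.8% ± 1.9 over all autosomal probes. With normexp the difference of Gclc was -0.0037 and those of Sqstm1 and Gclm were 0.27 and 0.28. The part of single-probe effects in these differences was not tested. Without tumour 252 the count was 3 above and 0 below, and without 240 or 244 it was 2 above and 0 below. Over all genes the share called fell likewise, to 32.4% without 252 and 31.7% without 244. Cul3 turned to 0.03 without its low probe (limma adjusted p = 0.687).

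**Figure D3:**
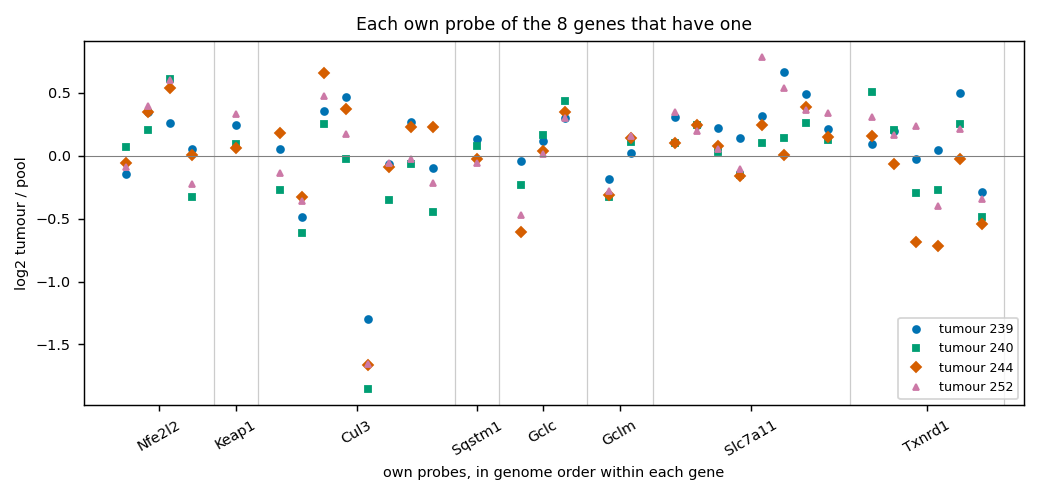
Log2 ratio of tumour to pool for each of the 33 own probes of the 8 NRF2 genes that have one, in genome order within each gene, with 1 symbol per tumour. The fifth Cul3 probe lies between -1.85 and -1.29 in the 4 tumours, the first Gclm probe is below 0 and the second above 0 in all 4, and 7 of 8 Slc7a11 probes are above 0 in all 4.

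A wider list of 86 NRF2 pathway genes, drawn up by role from textbook knowledge, was read the same way. Of these, 71 had own probes. In their surroundings 4 of the 71 were higher and 1 was lower in limma, no more than the 7.82% and 5.95% of all genes, with a median of 0.04 against 0.01 over all genes. The 4 that were higher all lie on chromosome 15, so they are not independent of each other. Maff, a small MAF partner of NRF2, read 0.28, 0.19, 0.41 and 0.37 (mean 0.31 ± 0.10, SD, n = 4; limma adjusted p = 0.00805). Nfe2, a sister factor of NRF2, read 0.26, 0.18, 0.34 and 0.27 (mean 0.26 ± 0.07, SD, n = 4; limma adjusted p = 0.0081). Rbx1, the RING subunit of the CUL3 ligase, read 0.24, 0.15, 0.35 and 0.30 (mean 0.26 ± 0.09, SD, n = 4; limma adjusted p = 0.00998). These 3 were gained in every tumour but 240.

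Txn2, the mitochondrial thioredoxin, was the only gene of the list gained in 4 of 4 tumours, at 0.31, 0.21, 0.37 and 0.34 (mean 0.31 ± 0.07, SD, n = 4; limma adjusted p = 0.00748). Its 2 own probes read 0.60, 0.40, 0.74 and 0.76. The own probes of the other 3 did not follow in the same way, as Rbx1 averaged 0.20 ± 0.09, Maff -0.03 ± 0.13 and Nfe2, with 1 probe, 0.08 ± 0.30 (SD, n = 4). Gpx2, a glutathione peroxidase on chromosome 12, was the 1 gene lower, at -0.40, -0.11, -0.33 and -0.20 (mean -0.26 ± 0.13, SD, n = 4; limma adjusted p = 0.0211). It was lost in tumours 239 and 244, while 252 lay just short of -0.2. None of these 5 calls held without tumour 239 or without tumour 252, with limma adjusted p from 0.0504 to 0.103. In those fits none of the 17885 genes tested passed, so they say nothing of these 5 in particular. The means of these 5 then stayed between 0.24 and 0.32 on chromosome 15 and at -0.21 and -0.28 for Gpx2. With arrays centred on the mode of their 1-Mb bins Gpx2 did not pass either (limma adjusted p = 0.0612). Without tumour 244 the list had 19 genes higher and 10 lower of 71, where 23.4% and 16.4% of all genes were.

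**Figure D4:**
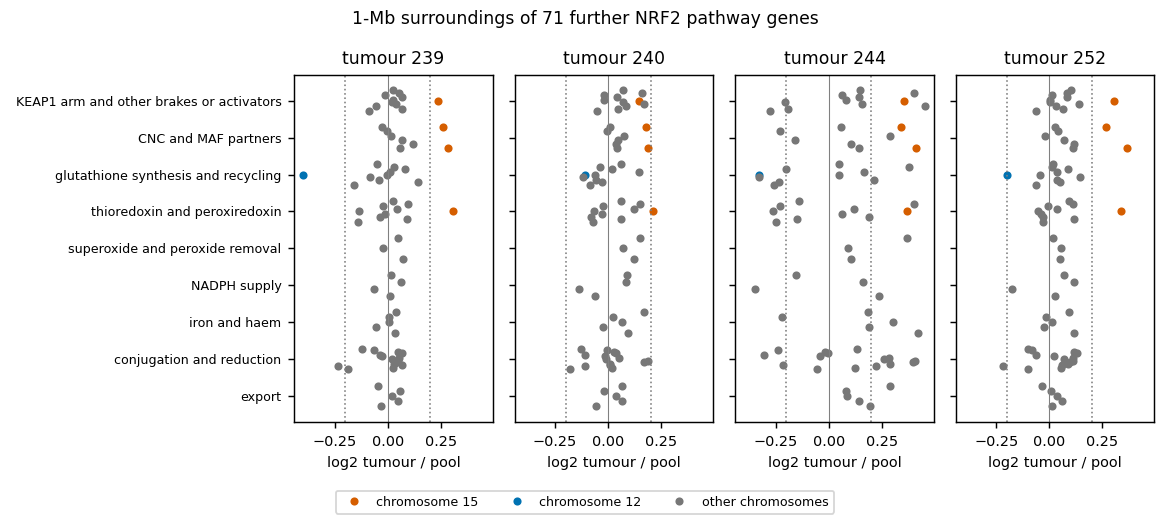
Log2 ratio of tumour to pool in the 1-Mb surroundings of the 71 further NRF2 pathway genes with own probes, by role and tumour, with dotted lines at -0.2 and 0.2. The 4 chromosome 15 genes (orange) lie at the right of tumours 239 and 252, between 0.15 and 0.21 among other genes in tumour 240, and tumour 244 spreads widest, with 21 genes gained and 16 lost.

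Calls were most frequent in tumour 244 for the list as for all genes. Tumour 244 gained 21 and lost 16 of the 71, against 20.9% and 25.8% of all genes. Tumour 239 gained 4 and lost 2 (4.18% and 5.23% of all genes), tumour 240 gained 1 and lost none (2.3% and 2.29%), and tumour 252 gained 4 and lost 1 (4.17% and 3.53%). Ces1g, a carboxylesterase on chromosome 8, was like Nqo1 and Hmox1 low in 239 and high in 244, being lost in 239 at -0.23 and in 252 at -0.22 and gained in 244 at 0.22. Txnrd2, the mitochondrial thioredoxin reductase, and the carbonyl reductases Cbr1 and Cbr3, all on chromosome 16, were gained in 244 at 0.40, 0.41 and 0.40 and did not pass limma over the 4 tumours. Me1, the malic enzyme that supplies NADPH, shares chromosome 9 with Keap1 and Gclc and was lost in 244 at -0.35.

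Of the 10 measured genes of glutathione synthesis and recycling, 0 were higher and 1 was lower in limma, against 7.82% and 5.95% of all genes. Tumour 244 gained 2 and lost 5 of them, where 20.9% of all genes were gained and 25.8% lost. Of the 5, Ggt1 and Gpx4 lie on chromosome 10, which read -0.25 as a whole in that tumour. Of the 10 thioredoxin and peroxiredoxin genes 1 was higher and 0 were lower, and of the 15 conjugation and reduction genes none passed limma in either direction. Of the 11 further brakes or activators of NRF2 1 was higher, and of its 8 sister factors and MAF partners 2 were. None passed in superoxide and peroxide removal, NADPH supply, iron and haem, or export. On own probes 16 of the 71 were higher and 13 lower, near the background, and 10 were higher without tumour 252, where 13.4% of all genes were.

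The promoters of the NRF2 genes were searched for the core of the antioxidant response element, TGACNNNGC, on either strand. The 300-base windows of the RefSeq promoter table (GRCm38.p6, 250 bases before to 50 after the start) held 8 of the 10 genes. Of these, 3 had a match, in 3 of 10 promoters, against 14.0% of all genes in the table and 12.4% of all promoters. The match in Nfe2l2 lies 240 bases before the start, on the strand of the gene, and those of Gclm and Txnrd1 lie on the opposite strand, 134 and 92 bases before the start. Capitals mark the element, and the motif shares its first bases with the AP-1 site. The coordinates are those of GRCm38.p6 and not of the array's build.
Nfe2l2 promoter, chr2:75704885-75704913, minus strand: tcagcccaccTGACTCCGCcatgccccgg
Gclm promoter, chr3:122245413-122245441, plus strand: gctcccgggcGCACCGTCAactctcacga
Txnrd1 promoter, chr10:82859104-82859132, plus strand: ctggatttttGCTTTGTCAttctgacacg
A match is a description of these letters, and the arrays did not measure binding there.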

How the data were processed

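Per the labels, 4 tumour DNAs in Cy5 were each hybridised against 1 pool of wild-type liver DNA in Cy3. Agilent Feature Extraction 12.0.0 made the scanner tables, per the submitters' processing notes. Per the file headers, the intensity deposited for each colour had its background subtracted and its dyes normalised. The authors' log10 ratio, and the authors' value table, which matches it within 0.005, are tumour over pool. All arrays lay on 1 slide in 1 scan, so no batch could be tested.

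From the deposited intensity, the log2 ratio of red to green was taken, control and outlier spots left out, spots of a probe averaged and each array centred on its autosomal median. Own probes, surroundings (at least 10 probes) and their difference were tested in limma 3.58.1 under R 4.3.3 against 0, over 17961, 17885 and 17884 genes, at an adjusted p of 0.05. The scripts were tested on simulated data, in which most genes carried no shift. For the surroundings limma called 15 of 50 genes shifted by 0.2, 38 of 50 shifted by 0.4 and 48 of 50 shifted by 0.8. On own probes it called 1, 23 and 47 of 50, and as differences 5, 36 and 44. Most shifts of 0.2 were therefore missed there. Each tumour is a separate mouse, and their number limits the precision.

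The members and lists were chosen with earlier results of these data known. All members are named. Of the wider list, up to 10 genes passing limma in their surroundings, by size, and up to 10 called in most tumours were named.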

Additional observations from a re-analysis of the deposited data

Results flagged for a closer look

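Of 31 sets of 4 tumour values tested for a value far from the others, 2 held one, where chance gives about 1 in 20. Both were in tumour 244. The Cul3 surroundings read 0.13 in tumour 244, against -0.09 to -0.06 in the other 3 tumours. Nfe2l2 minus Keap1 in the surroundings was 0.31 in tumour 244, against 0.05 to 0.07 in the other 3.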

How the results depend on the processing

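No paired analysis was possible because the study has 1 group of tumours against a shared pool. Centred on the mode of 1-Mb bins, own probes called 0 members higher and 1 lower, against 2 and 0. Of all genes 16.3% were then higher and 16.9% lower. The median over probes gave 1 higher on own probes (20.8% of all genes) and 1 lower in the surroundings (4.05% of all genes). With the median 1 member was lost in tumour 239 (Hmox1) and 1 in tumour 244 (Gclc). Normexp gave 4 higher and 1 lower on own probes, 1 lower in the surroundings, and 7 of the wider list lower. With it 21.1% of all genes were higher and 27.0% lower on own probes, and 11.1% lower in the surroundings. Own probes minus surroundings had 2 lower with 0.5-Mb surroundings and with probes well above background, as had the surroundings of the wider list. Of all genes 23.4% and 23.2% were then lower as a difference, and 7.35% and 5.76% lower in the surroundings. Tumour 239 had 1 member lost with 0.5-Mb or 5-Mb surroundings or own probes kept in them. At a threshold of 0.3 no member was lost in any tumour, and 2 were gained in 244. At 0.1, 2 were lost in 239 and 2 in 252, and 244 had 3 gained and 3 lost. Shares of all genes gained or lost in single tumours are given only at 0.2 in the main processing. Counts of members gained or lost under other settings therefore have no background here. Leaving out 1 tumour at a time gave 0 to 2 members higher and 0 to 1 lower on own probes. It gave 0 to 4 lower in the surroundings, and 2 to 5 above and 0 to 1 below them. Of the wider list 10 to 16 were then higher and 9 to 15 lower on own probes, and 0 to 19 higher and 0 to 10 lower in the surroundings. Over all genes these fits called 13.4% to 20.2% higher and 12.1% to 17.4% lower on own probes. In the surroundings they called 0% to 23.4% higher and 0% to 16.4% lower. As differences 16.8% to 27.1% lay above and 15.3% to 26.6% below. Under normexp Gclc turned to -0.19 and Gclm to 0.21 on own probes, the differences of Sqstm1, Gclc and Gclm to 0.27, -0.0037 and 0.28, and the surroundings of Nfe2l2, Gclm, Txnrd1 and Hmox1, none called, to -0.0098, -0.068, -0.021 and -0.066. Without its low probe Cul3 turned to 0.0031 on own probes and 0.026 as a difference. The other turns were of uncalled surroundings. With 0.5-Mb surroundings Nfe2l2 turned to -0.014, Cul3 to 0.024 and Nqo1 to -0.025. With 5 Mb, Nqo1 turned to -0.0014, Gclm to -0.026, Txnrd1 to -0.011, Hmox1 to -0.051 and Ces1g to 0.017. Centred on the mode of 1-Mb bins, Nqo1, Gclm and Txnrd1 turned to -0.022, -0.014 and -0.022. The median over probes turned Cul3 to 0.019 and Txnrd1 to -0.0039, and own probes kept in turned Nqo1 to -0.0058 and Txnrd1 to -0.0027. Leaving out 1 tumour spanned 0 for own probes of Sqstm1 (-0.0040 to 0.060), Nqo1 (-0.15 to 0.033), Gclc (-9.9e-05 to 0.067) and Txnrd1 (-0.099 to 0.034), for the surroundings of Nqo1 (-0.11 to 0.074), Gclm (-0.010 to 0.025), Txnrd1 (-0.025 to 0.060) and Hmox1 (-0.082 to 0.12), and for the difference of Sqstm1 (-0.064 to 0.0088). The cause was not tested. Of the single-gene values under the alternatives, 455 kept sign and side of the threshold, 36 lost the call, 23 gained it and 38 changed sign. With 1 to 8 own probes per gene, own-probe values are limited by the scatter of single probes, and 4 tumours limit the tests.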
